A study of Mus musculus with 4 samples.

Results

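The genes described here are 10 myeloid receptor genes: the TREM receptors Trem1, Trem2 and Trem3, the adaptor Tyrobp, the CD300 receptors Cd300a, Cd300lb, Cd300ld and Cd300lf, and the receptors Pilra and Pirb. They were chosen by name, and 9 of the 10 were found by the gene name given in the array files. Pirb is listed there under its synonym Lilrb3 and was found through its RefSeq accession. Together they are 10 of the 28511 genes on the array, measured by 16 probes, and each of the 16 probes was well above background on all 4 arrays.

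The study compared miR-223 KO bone marrow with wild type bone marrow, both from male C57BL/6 mice. Marrow cells of both genotypes grew for 4 days in 40 ng/ml of the cytokine GM-CSF, which drives myeloid progenitors to divide and differentiate, and immature granulocytes that were expanding were then sorted. Each group had 2 arrays, and the labels give neither the age of the mice, nor how the knockout allele was made, nor whether the 2 arrays of a group came from separate animals or cultures. The p-values therefore measure the spread between these arrays, which may be technical.

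TREM, CD300 and related receptors sit on the surface of neutrophils, monocytes and macrophages and tune how strongly these cells react. Activating members have almost no signalling tail of their own and pair in the membrane with an adaptor such as the Tyrobp product DAP12, whose ITAM motif is phosphorylated and recruits the kinase Syk. Inhibitory members carry ITIM motifs in their own tails, which recruit phosphatases such as those encoded by Ptpn6 and Ptpn11. Many come in pairs, 1 activating and 1 inhibitory, from adjacent genes with similar outer domains. miR-223 is a microRNA abundant in neutrophils and their precursors. It lowers its targets by pairing its seed with their transcripts.

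The mature miR-223-3p is shown because it is what the knockout removes, with its seed, bases 2 to 8, in capitals. RefSeq places it at chrX:96242884-96242905 on the plus strand of GRCm38.p6. The probe sequences are shown because each value rests on what a probe reads, and the first 30 of the 60 bases are printed for the genes on which the results turn. The 2 Trem2 probes read separate stretches of the transcript. The 2 Pirb probes share 50 bases, and capitals mark those that both read.
mmu-miR-223-3p: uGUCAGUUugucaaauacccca
Trem2, A_51_P269546: tgttgagtggggaagacagctggatggttg
Trem2, A_51_P269549: gccaagatgctgggcaccaacttcagatcc
Tyrobp, A_51_P261517: ggacccggaaacaacacattgctgagactg
Pirb, A_51_P445726: GGGAACTTTTGGAAACGTGACTGCACTTTA
Pirb, A_51_P445728: aagggactctGGGAACTTTTGGAAACGTGA
The match to the seed, AACTGAC, was searched in the sense letters of the probes. It lies in 0 of the 16 probes of these genes and in 153 of all 41174 probes, or 0.372%. A probe covers 60 bases of a transcript, so this says only that the letters are not in those windows.

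Levels below are the log2 processed intensity of a probe minus the 75th percentile of its array, so that 0 is that percentile, and differences are miR-223 KO minus wild type. That percentile was an intensity of 514 and 493 on the miR-223 KO arrays, against 586 and 486 on the wild-type arrays. The shares of probes well above background were 62.2% and 63.0% on the miR-223 KO arrays and 63.5% and 57.6% on the wild-type arrays. Across genes, the correlation was 0.994 between the miR-223 KO arrays and 0.990 between the wild-type arrays, against 0.985 to 0.991 between genotypes. No probe used here measures the microRNA itself, so the knockout could not be checked on these arrays.

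Of the 10 genes, Trem2 was lower on both miR-223 KO arrays than on both wild-type arrays. Tyrobp, Cd300a, Cd300lb, Cd300lf and Pilra were higher on both. Trem1, Trem3, Cd300ld and Pirb overlapped between the genotypes. Arrays that stood apart were also common among all 16783 tested genes: 27.9% had both miR-223 KO arrays above both wild-type arrays and 20.1% had both below, beside 5 of 10 and 1 of 10 here. After Benjamini-Hochberg adjustment of limma's p over all tested genes, 0 of the 10 genes and 0% of all genes passed 0.05. At an unadjusted limma p under 0.05, 1 of the 10 genes was lower, beside 5.54% of all genes, and 0 were higher, beside 8.03%. The median difference of the 10 genes was 0.18, and that of all tested genes 0.03.

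**Figure D1:**
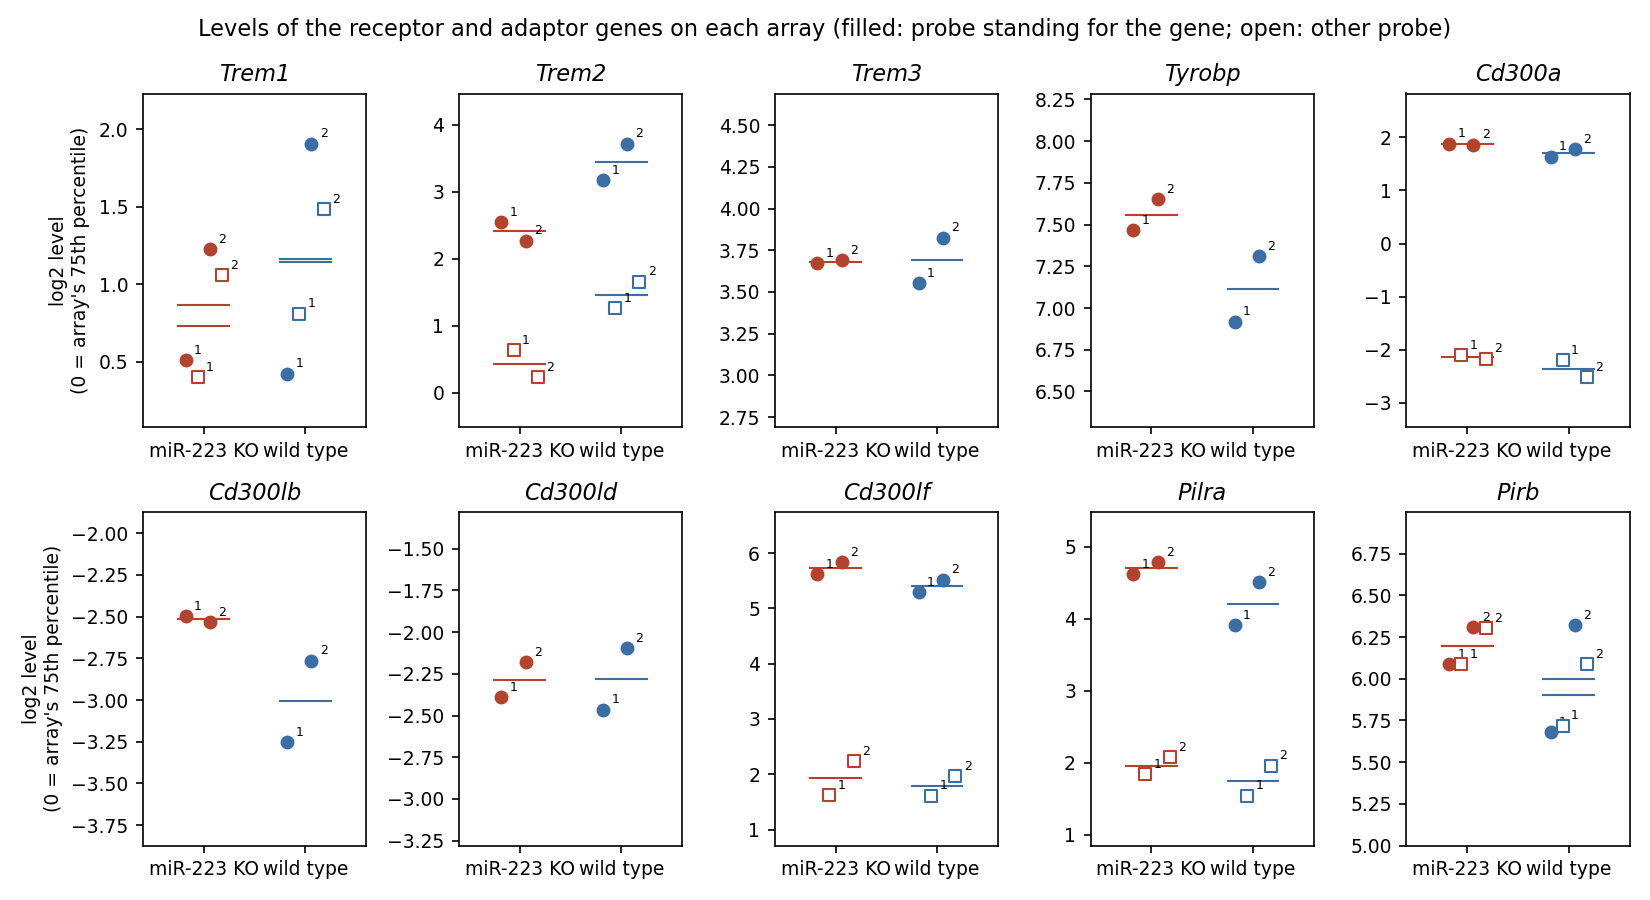
Log2 level of each of the 10 genes (0 is the 75th percentile of the array) on the 2 miR-223 KO arrays (red, left) and the 2 wild-type arrays (blue, right). Filled circles are the probe that stands for the gene, open squares its other probe, small digits the array number and horizontal lines the mean of a group for each probe, and the vertical axis differs between panels. Both Trem2 probes lie lower in miR-223 KO, while the Trem1 arrays overlap.

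Trem2 encodes a receptor for lipids and lipoproteins that signals through DAP12 and is known from macrophages, microglia and osteoclasts. The probe standing for the gene (A_51_P269546, mm9 chr17:48491522-48491581) read 2.55 and 2.27 on the miR-223 KO arrays, against 3.17 and 3.71 on the wild-type arrays. The background-corrected intensities behind these levels were 3004 and 2376 on the miR-223 KO arrays and 5287 and 6384 on the wild-type arrays. The genotypes did not overlap, and the gap between them exceeded the gap of 0.28 between the miR-223 KO arrays and of 0.54 between the wild-type arrays. The difference was -1.04 ± 0.24 (limma's SE, n = 2 each), or 2.05-fold lower, with a 95% interval of -1.67 to -0.41. The unadjusted limma p was 0.00939 and the adjusted p 0.263, so the difference did not pass the test over all genes. By p it ranked 591 of the 16783 genes, and 1.99% of all genes had a difference as low or lower. Of all tested genes, 1.94% were at least 2-fold lower with arrays apart, as Trem2 was.

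The second Trem2 probe (A_51_P269549, mm9 chr17:48491220-48491356) read 0.63 and 0.23 on the miR-223 KO arrays, against 1.27 and 1.65 on the wild-type arrays. These arrays did not overlap either, and the 60 bases of this probe align over 137 bases of the genome, so the stretch it reads is interrupted there, as spliced exons are. The difference was -1.03 ± 0.22, with an unadjusted limma p of 0.00686 and an adjusted p of 0.273 over the 25065 probes tested. Both probes were read on the same 4 RNA samples, so they repeat the measurement and not the biology. In that limma fit, 0 of the 16 probes passed 0.05 after adjustment, beside 0.012% of all probes. Both miR-223 KO arrays lay above both wild-type arrays at 6 of the 16, beside 27.6% of all probes, and below at 2, beside 19.4%. Without array 1 of wild type the difference of the gene was -1.31, with an adjusted limma p of 0.0926, the lowest of any setting tried.

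Trem1 encodes the receptor that amplifies inflammatory responses of neutrophils and monocytes. Its levels (A_51_P398491, mm9 chr17:48383969-48384028) were 0.51 and 1.23 on the miR-223 KO arrays, against 0.42 and 1.91 on the wild-type arrays. The wild-type arrays lay 1.48 apart, the widest gap among the 10 genes, and enclosed both miR-223 KO arrays. The difference of -0.30 ± 0.57, with a 95% interval of -1.81 to 1.22 and an adjusted limma p of 0.845, left either direction possible. Its other probe (A_52_P415116) read 0.40 and 1.06 on the miR-223 KO arrays, against 0.81 and 1.48 on the wild-type arrays, and also overlapped. Without array 1 of wild type the difference was -1.04, and without array 1 of miR-223 KO it was 0.06.

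Trem3 is a mouse receptor gene next to Trem1 whose product also pairs with DAP12. Its levels (A_51_P203675, mm9 chr17:48397990-48398049) were 3.67 and 3.69 on the miR-223 KO arrays, against 3.55 and 3.83 on the wild-type arrays, so the wild-type pair enclosed the miR-223 KO pair. The difference was -0.01 ± 0.15, with an interval of -0.41 to 0.39 and an adjusted limma p of 0.984. On the array's mm9 coordinates the probes of Trem1, Trem3 and Trem2 lie within 107.6 kb of chromosome 17, and of these 3 genes Trem2 was the one at which the genotypes stood apart. The TREM-like genes Treml1 and Treml4 nearby were looked at after their values were known. Treml1, known as a platelet receptor gene, read -3.71 and -3.48 on the miR-223 KO arrays, against -3.15 and -2.87 on the wild-type arrays, a difference of -0.59 ± 0.17 with an adjusted limma p of 0.308, or -0.26 with normexp background correction. Treml4 differed by -0.01 ± 0.18, and its arrays overlapped.

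Tyrobp encodes DAP12, the shared adaptor of the TREM receptors and of activating CD300 receptors. Its probe (A_51_P261517) aligns between positions 31200651 and 31202378 of mm9 chromosome 7, a span of 1728 bases, so the 60 bases it reads are likewise interrupted in the genome. The levels were 7.47 and 7.65 on the miR-223 KO arrays, against 6.92 and 7.31 on the wild-type arrays. The genotypes did not overlap, though array 1 of miR-223 KO lay closer to array 2 of wild type than the wild-type arrays lay to each other. The difference was 0.44 ± 0.19, or 1.36-fold, with a 95% interval of -0.06 to 0.95 and an adjusted limma p of 0.407. Adaptor and receptor thus differed in sign: the difference was positive for Tyrobp and negative for Trem2.

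**Figure D2:**
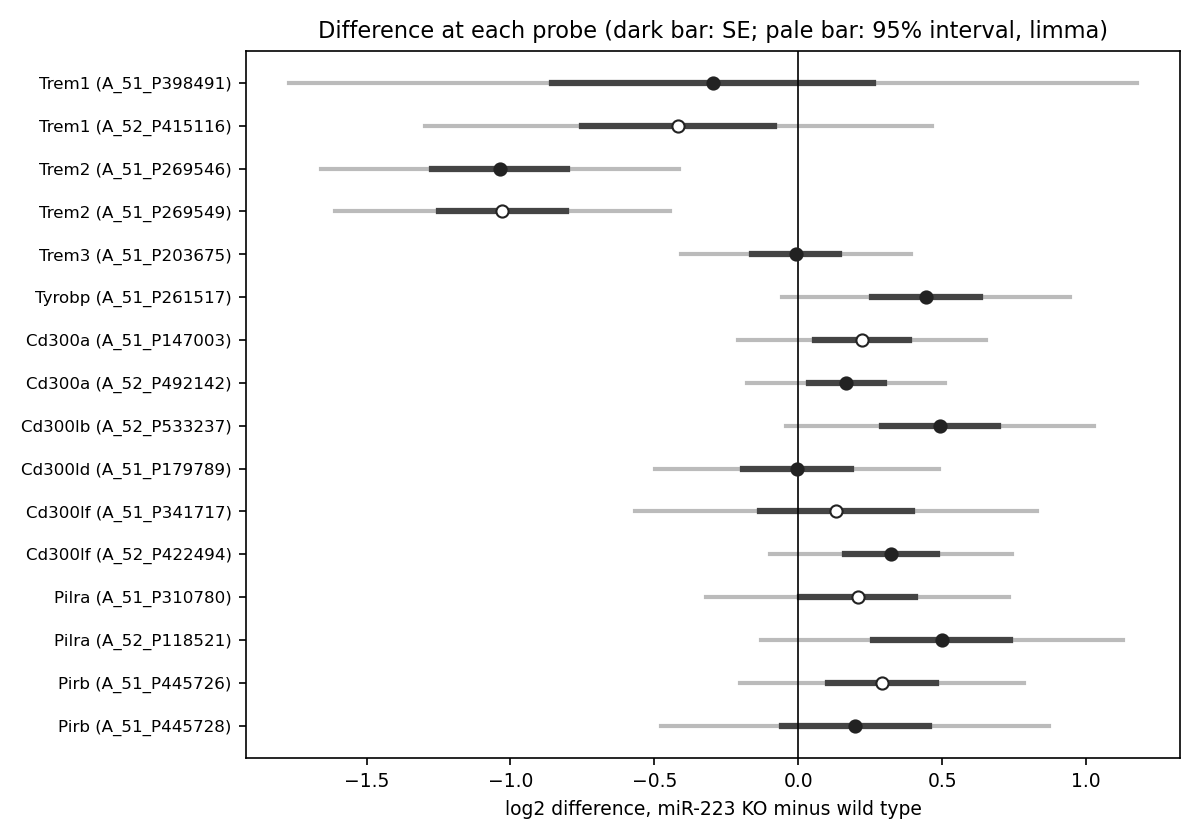
Log2 difference, miR-223 KO minus wild type, at each of the 16 probes, with the SE (dark bar) and the 95% interval (pale bar) of the limma fit over all probes. Filled points are the probes that stand for a gene and open points the others. The intervals of both Trem2 probes lie below 0, and the intervals of the other 14 probes include 0.

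The CD300 receptors bind lipids such as phosphatidylserine and ceramide on dying cells and membranes. Cd300lf encodes an inhibitory receptor with ITIM motifs. Its levels (A_52_P422494, mm9 chr11:114977533-114977592) were 5.62 and 5.83 on the miR-223 KO arrays, against 5.29 and 5.52 on the wild-type arrays. The genotypes stood apart by a small margin, with array 2 of wild type close to array 1 of miR-223 KO. The difference was 0.32 ± 0.16, or 1.25-fold, with an interval of -0.10 to 0.74 and an adjusted limma p of 0.454. The other Cd300lf probe (A_51_P341717), which spans 1793 bases of the genome, read 1.62 and 2.23 on the miR-223 KO arrays, against 1.62 and 1.97 on the wild-type arrays. There the genotypes overlapped, and the difference was 0.13 ± 0.26.

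Cd300a encodes the other inhibitory receptor of this family measured here. Its levels (A_52_P492142, mm9 chr11:114762469-114762528) were 1.88 and 1.86 on the miR-223 KO arrays, against 1.64 and 1.78 on the wild-type arrays, a difference of 0.17 ± 0.13 with an adjusted limma p of 0.607. The arrays stood apart at this probe and also at the other one (A_51_P147003), where the difference was 0.22 ± 0.16. Both intervals include 0.

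Cd300lb encodes an activating receptor that pairs with DAP12. Its levels (A_52_P533237, mm9 chr11:114789764-114789823) were -2.50 and -2.53 on the miR-223 KO arrays, against -3.25 and -2.76 on the wild-type arrays. The miR-223 KO arrays agreed within 0.04 and both lay above the wild-type arrays. The difference was 0.49 ± 0.20, or 1.41-fold, with an interval of -0.05 to 1.03 and an adjusted limma p of 0.396. With normexp background correction in place of the processed signal it was 0.21.

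Cd300ld, a further member of the cluster, read -2.39 and -2.18 on the miR-223 KO arrays, against -2.46 and -2.10 on the wild-type arrays (A_51_P179789, mm9 chr11:114844333-114844392). The wild-type pair enclosed the miR-223 KO pair, and the difference was -0.00 ± 0.19, with an interval of -0.50 to 0.49 and an adjusted limma p of 0.993. The 6 probes of the 4 CD300 genes lie within 225 kb of chromosome 11. Cd300c2, a neighbour in this stretch that was looked at after its values were known, read 3.31 and 3.39 on the miR-223 KO arrays, against 2.96 and 3.12 on the wild-type arrays. It stood apart, with a difference of 0.31 ± 0.13 and an adjusted limma p of 0.415. The array holds 2 Cd300c2 probes, and the value of the other is not given here.

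Pilra encodes an inhibitory receptor for sialylated proteins, paired with the activating Pilrb receptors, which use DAP12. Its levels (A_52_P118521, mm9 chr5:138264800-138265232) were 4.62 and 4.79 on the miR-223 KO arrays, against 3.91 and 4.50 on the wild-type arrays. The genotypes did not overlap, and the wild-type arrays lay 0.60 apart, more than the difference between genotypes. That difference was 0.50 ± 0.24, or 1.41-fold, with an interval of -0.14 to 1.14 and an adjusted limma p of 0.446. At the other Pilra probe (A_51_P310780) the arrays overlapped, with a difference of 0.21 ± 0.20.

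The activating partners of Pilra were looked at after their values were known. Pilrb1 read 4.85 and 5.05 on the miR-223 KO arrays, against 4.44 and 4.81 on the wild-type arrays, a difference of 0.32 ± 0.18 with an adjusted limma p of 0.506. Pilrb2 read 2.78 and 2.96 on the miR-223 KO arrays, against 2.33 and 2.65 on the wild-type arrays, a difference of 0.38 ± 0.17 with an adjusted limma p of 0.430. Both stood apart in the same direction as Pilra. The array holds 2 Pilrb2 probes, and the value of the other is not given here. The accessions of the Pilrb1 probe match 2 RefSeq genes, so it may not tell its target from a close copy.

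Pirb encodes an inhibitory receptor for MHC class I that is known to restrain neutrophils and macrophages. Its levels (A_51_P445728, mm9 chr7:3664158-3664217) were 6.09 and 6.31 on the miR-223 KO arrays, against 5.68 and 6.32 on the wild-type arrays, which overlap. The difference was 0.20 ± 0.26, with an interval of -0.49 to 0.88 and an adjusted limma p of 0.764. The other probe (A_51_P445726), which shares most of its bases, differed by 0.29 ± 0.19 and also overlapped. The Pira genes, which encode its activating partners, are close copies of Pirb, so these probes may read more than 1 gene. Pira6 read -0.84 and -0.22 on the miR-223 KO arrays, against -1.45 and -0.89 on the wild-type arrays, a difference of 0.64 ± 0.30 with an adjusted limma p of 0.443, and stood apart. The accessions of the Pira6 probe match 0 RefSeq genes, so its target is less certain. Pira2 differed by 0.15 ± 0.19, with overlapping arrays. Both Pira genes were looked at after their values were known.

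**Figure D3:**
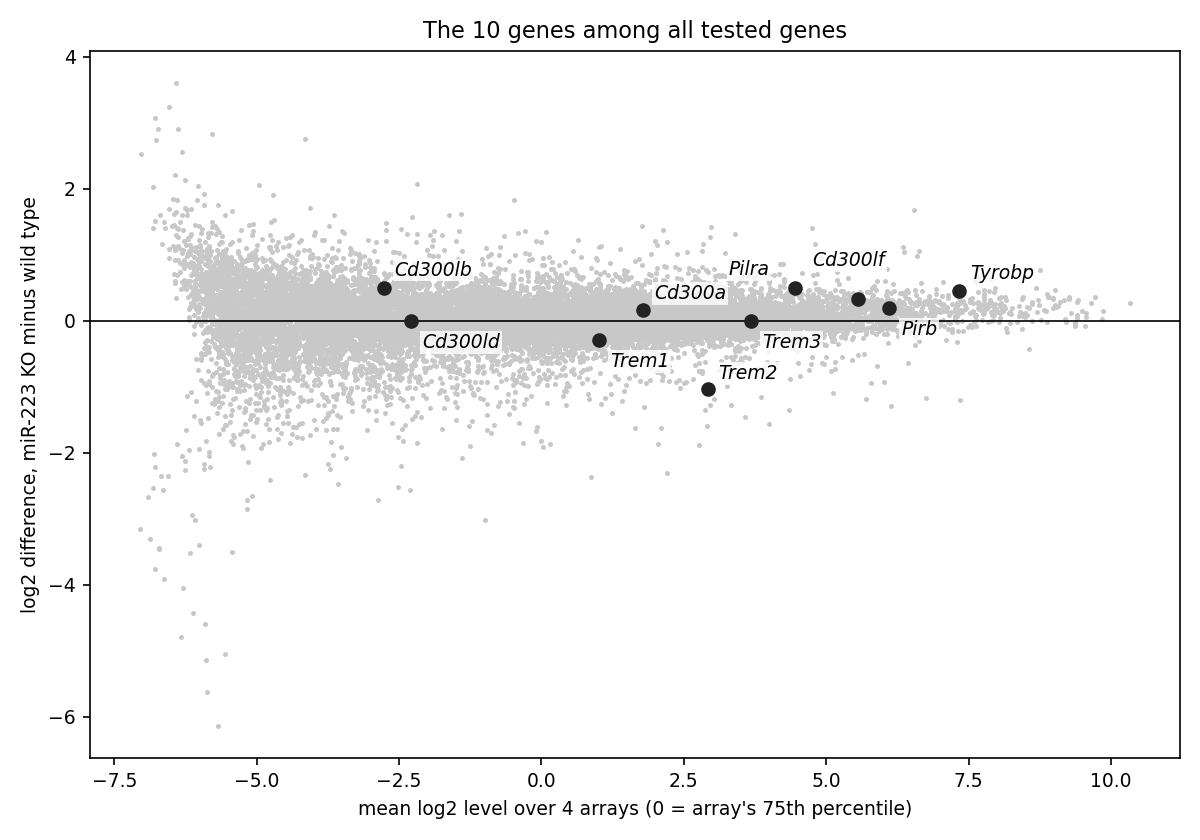
Log2 difference, miR-223 KO minus wild type, against the mean log2 level over the 4 arrays for the 16783 tested genes (grey), with the 10 genes in black. Trem2, at -1.04, lies below most genes of similar signal, and the other 9 genes lie between -0.30 and 0.50.

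The 2 wild-type arrays differed in level for these receptors. All 10 genes were higher on array 2 of wild type than on array 1, by a median of 0.44, beside 49.0% of all tested genes, whose median gap was -0.01. Between the miR-223 KO arrays, 7 of 10 genes were higher on array 2, by a median of 0.18, beside 43.1% of all genes. Without array 1 of wild type, 5 genes had both miR-223 KO arrays above the remaining wild-type array and 5 had both below it, beside 43.4% and 36.2% of all genes tested in that setting. Without array 2 of wild type, 8 genes had both above and 1 had both below, beside 40.4% and 37.3% of all genes. The median difference of the 10 genes was -0.01 without array 1 of wild type and 0.34 without array 2. Trem2 was lower in both cases, at -1.31 without array 1 and -0.77 without array 2, while Tyrobp was at 0.25 and 0.64 and Pilra at 0.20 and 0.80.

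Other paired and ITAM-coupled myeloid receptors gave a mixed picture. Of 17 tested, 0 passed the adjusted limma test, and the median difference was 0.15, beside 0.03 for all tested genes. In miR-223 KO, 6 stood apart and higher, beside 27.9% of all genes, and 5 lower, beside 20.1%. Cd300e, which encodes an activating CD300 receptor of monocytes, read -1.82 and -1.23 on the miR-223 KO arrays, against -3.05 and -2.63 on the wild-type arrays. Its difference of 1.31 ± 0.27 (limma, adjusted p = 0.256) was the largest positive one in the list, and was 0.85 with normexp. Clec5a, a DAP12-coupled lectin of myeloid cells, read 5.51 and 5.47 on the miR-223 KO arrays, against 4.75 and 5.01 on the wild-type arrays, a difference of 0.61 ± 0.15 (limma, adjusted p = 0.277), and its 2 other probes differed by 0.47 and 0.52. Cd300lg, known from vascular endothelium, read -2.87 and -3.08 on the miR-223 KO arrays, against -2.34 and -2.23 on the wild-type arrays, a difference of -0.69 ± 0.14 (limma, adjusted p = 0.256), or -0.44 with normexp. Sirpb1b, an activating member of the SIRP family, read -0.32 and 0.29 on the miR-223 KO arrays, against 0.97 and 0.88 on the wild-type arrays, a difference of -0.95 ± 0.24 (limma, adjusted p = 0.280). Each of these 4 genes stood apart between the genotypes. Of the 17 receptors, 16 were higher on array 2 of wild type than on array 1.

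Among the adaptors and the first steps of ITAM signalling, 0 of 25 tested genes passed the adjusted limma test. The genotypes stood apart with miR-223 KO higher for 7 genes, beside 27.9% of all genes, and lower for 6, beside 20.1%, and the median difference was 0.00. Fcer1g, the ITAM adaptor of Fc receptors and of the Pira receptors, read 7.93 and 8.11 on the miR-223 KO arrays, against 7.08 and 7.63 on the wild-type arrays, a difference of 0.66 ± 0.23 (limma, adjusted p = 0.345), with 0.70 at its other probe. Syk, the kinase that docks on phosphorylated ITAMs, read 3.54 and 3.75 on the miR-223 KO arrays, against 3.16 and 3.19 on the wild-type arrays, a difference of 0.47 ± 0.14 (limma, adjusted p = 0.314). Hcst, the adaptor DAP10 encoded beside Tyrobp, was looked at after its values were known and read 3.57 and 3.63 on the miR-223 KO arrays, against 2.85 and 3.32 on the wild-type arrays, a difference of 0.52 ± 0.20 (limma, adjusted p = 0.374).

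Cblb, a ubiquitin ligase that dampens receptor signalling, read -5.47 and -5.10 on the miR-223 KO arrays, against -4.41 and -4.57 on the wild-type arrays, a difference of -0.80 ± 0.18 (limma, adjusted p = 0.261), with -0.93 at its other probe and -0.28 with normexp. Src, a kinase that phosphorylates ITAMs, differed by -0.54 ± 0.16 (limma, adjusted p = 0.315), but by 0.02 at its other probe and by -0.19 with normexp.

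Of the 10 phosphatases and inhibitors that ITIM receptors recruit or that act beside them, 0 passed the adjusted limma test. In miR-223 KO, 3 stood apart and higher, beside 27.9% of all genes, and 2 lower, beside 20.1%, with a median of 0.02. Inppl1, a lipid phosphatase, read -0.22 and -0.34 on the miR-223 KO arrays, against -0.03 and 0.30 on the wild-type arrays, a difference of -0.42 ± 0.17 (limma, adjusted p = 0.387). The inhibitory docking protein Dok3 differed by 0.28 ± 0.13, its relative Dok2 by -0.24 ± 0.17 and the phosphatase Ubash3b by 0.31 ± 0.16, each with adjusted limma p of 0.436 or more.

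**Figure D4:**
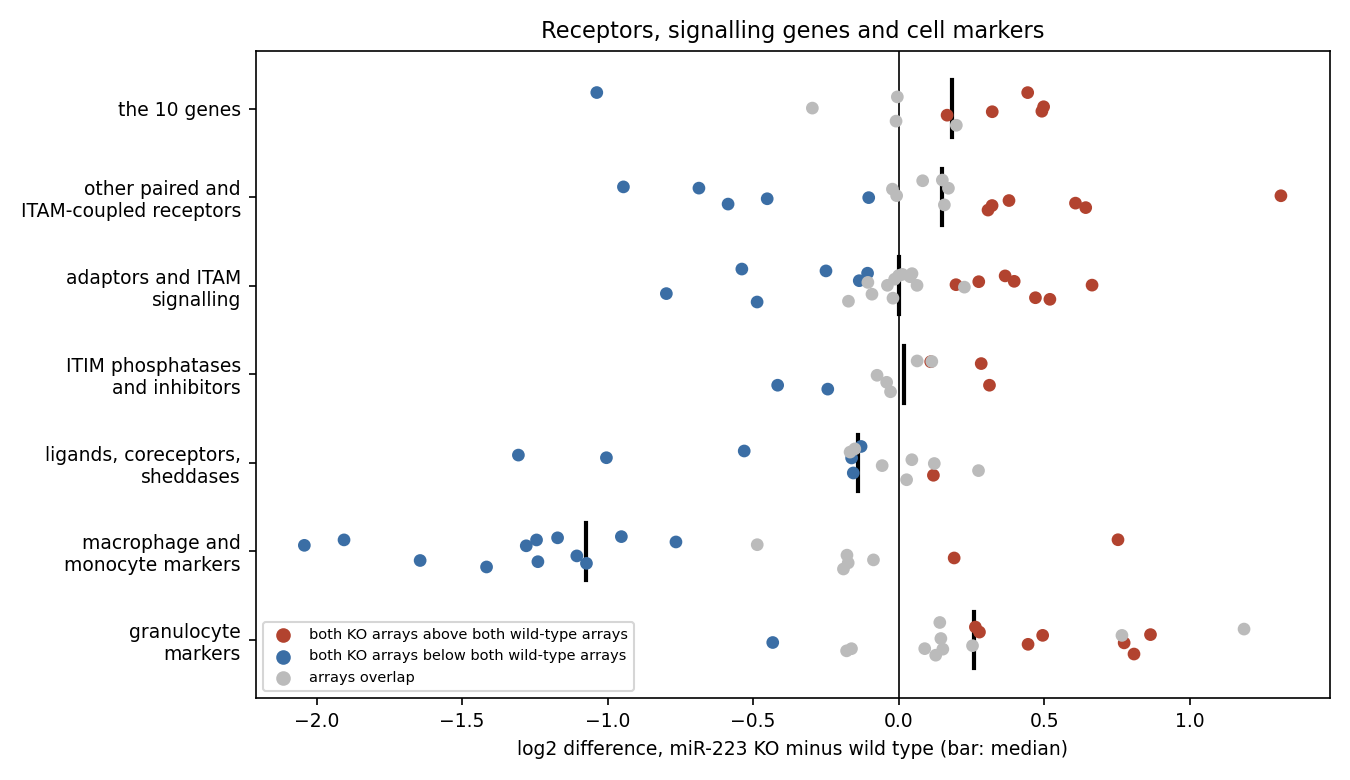
Log2 difference, miR-223 KO minus wild type, of each tested gene of the 10 genes, 4 pathway lists and 2 marker lists, with the median of each list as a black bar. Red points had both miR-223 KO arrays above both wild-type arrays, blue points both below, and grey points overlapped. Macrophage and monocyte markers have a median of -1.07 and granulocyte markers of 0.26.

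Among the 14 reported ligands, coreceptors and sheddases, 0 passed the adjusted limma test, and the median was -0.14. In miR-223 KO, 1 stood apart and higher, beside 27.9% of all genes, and 6 lower, beside 20.1%. Plxna1, a semaphorin receptor reported to join Trem2 and DAP12 in dendritic cells and osteoclasts, read 0.03 and -0.15 on the miR-223 KO arrays, against 0.77 and 1.11 on the wild-type arrays. Its difference was -1.004 ± 0.177 (limma, adjusted p = 0.244), but its other probe differed by 0.40 in the opposite direction. Angptl2, a secreted protein reported as a ligand of Pirb and its human relatives, differed by -1.31 ± 0.45 (limma, adjusted p = 0.344), and its 2 other probes by -2.18 and -1.56. With normexp it differed by -0.38, without array 2 of miR-223 KO by -0.75. Sema6d, a ligand of Plxna1, differed by -0.53 ± 0.26 (limma, adjusted p = 0.448), while its 2 other probes differed by 0.14 and 0.18. The Trem2 ligand Clu read 1.54 and 1.40 on the miR-223 KO arrays, against 1.43 and 0.96 on the wild-type arrays, and overlapped.

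Most macrophage and monocyte markers lay on the same side as Trem2, and so did most mast cell, basophil and dendritic cell markers. The remaining cell marker lists differed from each other. Of 19 tested macrophage and monocyte markers, 0 passed the adjusted limma test. In miR-223 KO, 12 of them stood apart and lower, beside 20.1% of all genes, and 2 higher, beside 27.9%. Their mean level was -0.24 and -0.36 on the miR-223 KO arrays, against 0.38 and 0.70 on the wild-type arrays, and their median difference was -1.07, or -0.68 with normexp. Mertk, a macrophage receptor for dying cells, read -4.47 and -4.89 on the miR-223 KO arrays, against -2.48 and -2.80 on the wild-type arrays. Its difference was -2.04 ± 0.21 (limma, adjusted p = 0.240), and -0.82 with normexp background correction. Fn1 differed by -1.91 ± 0.27. Vcan differed by -0.95 ± 0.13, by -0.46 with normexp, and by -1.08 to -0.06 at its 4 other probes. The Fc receptor gene Fcgr1 was higher on both miR-223 KO arrays, by 0.19 ± 0.12, and Cd14 overlapped. Adgre1, looked at after its values were known, was also higher on both, by 0.75 ± 0.24 (limma, adjusted p = 0.329). Vsig4, a marker of tissue macrophages, was not well above background on both arrays of either group, so it was not tested. In these bulk samples, fewer cells of a type and less RNA per cell cannot be told apart, and the part of these markers in the Trem2 difference was not tested.

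The other cell markers were measured beside the receptors. Of 18 granulocyte markers tested, 7 stood apart and higher in miR-223 KO, beside 27.9% of all genes, and 1 lower, beside 20.1%. With quantile normalization 5 were apart and higher, beside 26.3% of all genes, and 2 lower, beside 21.7%. The median difference was 0.26, or 0.09 with quantile normalization and 0.27 with normexp. Their mean level was 6.27 and 6.47 on the miR-223 KO arrays, against 5.90 and 6.17 on the wild-type arrays. Lcn2, a specific granule protein, read 7.96 and 8.28 on the miR-223 KO arrays, against 7.05 and 7.57 on the wild-type arrays, a difference of 0.81 ± 0.24 (limma, adjusted p = 0.314). Cd177 differed by 0.77 ± 0.18, Ngp by 0.49 ± 0.17 and S100a8 by 0.26 ± 0.17, and the genotypes overlapped at S100a9. Mpo, looked at after its values were known, was the marker that stood apart and lower, at -0.43 ± 0.24. Of the 18 differences, 15 were positive and 3 negative. S100a8, S100a9, Ngp and Lcn2, which are known from granulocytes and their late precursors, were well above background on all 4 arrays. The part of these markers in the positive differences of Tyrobp, Pilra and the CD300 receptors was not tested.

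Of 9 mast cell and basophil markers, 8 stood apart and lower in miR-223 KO, beside 20.1% of all genes, and 0 higher, beside 27.9%. Their median difference was -1.35. Their mean level was 0.78 and -0.49 on the miR-223 KO arrays, against 1.33 and 1.31 on the wild-type arrays. Of 17 dendritic cell markers, 3 stood apart and higher, beside 27.9% of all genes, and 8 lower, beside 20.1%, with a median of -0.25. In the lists of eosinophil, B cell, T and NK cell, and erythroid markers, between 3 and 7 genes were tested, with medians from -0.22 to 0.04. None of these lists held a gene that passed the adjusted limma test, and their part in the receptor values was not tested.

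**Figure D5:**
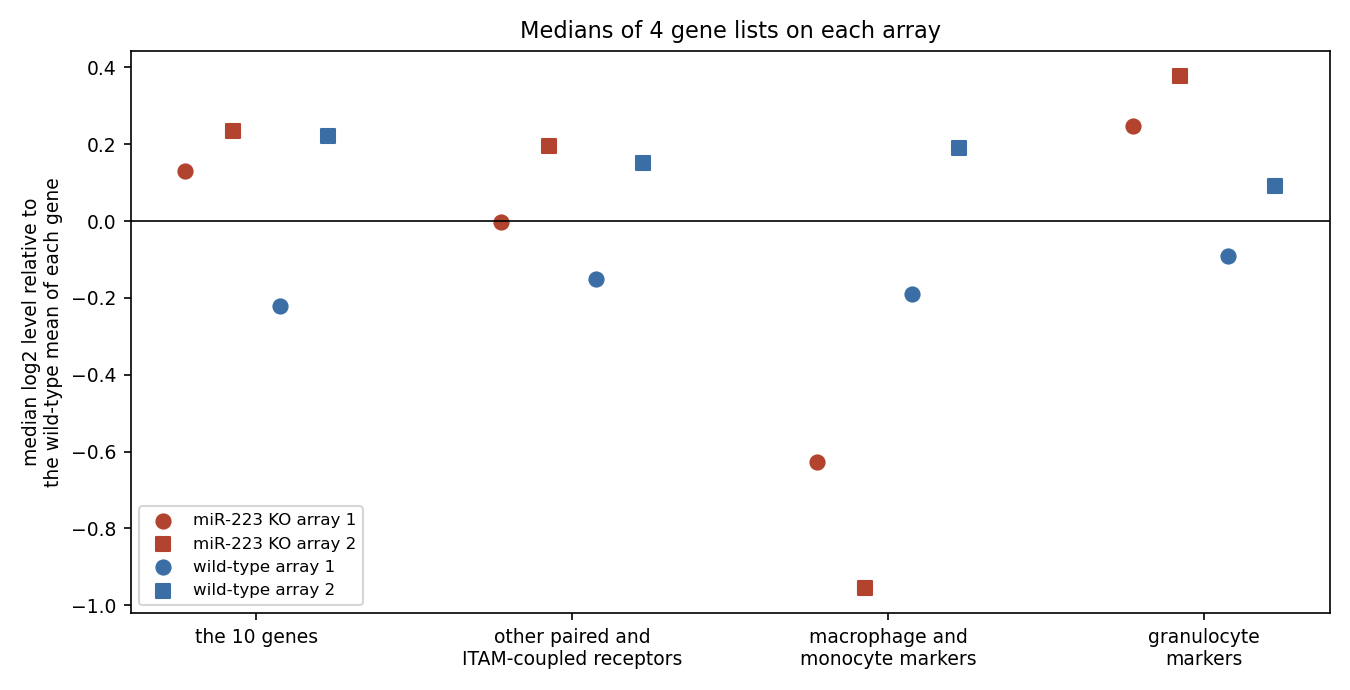
Median log2 level of 4 gene lists on each array, relative to the wild-type mean of each gene, with miR-223 KO in red to the left and wild type in blue to the right. The 10 genes stand at 0.13 and 0.23 on the miR-223 KO arrays and at -0.22 and 0.22 on the wild-type arrays. The macrophage and monocyte markers stand at -0.63 and -0.95 on the miR-223 KO arrays and at -0.19 and 0.19 on the wild-type arrays.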

How the data were processed

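RNA of sorted immature granulocytes from miR-223 KO and wild type marrow cultures was labelled with Cy3 and hybridised to 4 one-colour Agilent mouse arrays of design 014868 on 1 slide, per the labels' protocols and the file headers. The intensity of each spot was deposited by the authors as Agilent Feature Extraction 10.5.1.1 output, background-subtracted and not normalized between arrays, per the file headers. The authors' deposited log2 values of the same arrays were compared with these: 99.8% lay within 0.01 of log2 intensity plus 1 constant per array, with column medians of 5.03, and how they were made is not given in the sources used here.

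Spots that are controls or carry an outlier flag were dropped, except for 24 array values with no unflagged spot. The log2 processed signal was averaged over the spots of a probe, and the 75th percentile of the 41174 probes of an array was then taken off. Probes were named through RefSeq accessions of assembly GRCm38.p6: 26888 by systematic name and 110 by another accession, while 14176 kept the array's name. Probe coordinates are on mm9, as in the array files. The probe with the highest mean stood for a gene, and 16783 of 28511 genes were tested, whose probe was well above background on each array of 1 group or both. The genotypes' levels were tested with limma 3.58.1 in R 4.3.3 (lmFit and eBayes, two-sided, Benjamini-Hochberg over all tested genes at 0.05). Errors are limma's SE with n = 2 arrays per group, with a median of 0.16 over genes. The number of arrays limits the precision. A second fit took all 25065 probes that passed the filter.

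The 10 genes and the 12 lists (4 of pathway genes, 8 of cell markers) were chosen with earlier results of these data known. The rule for naming genes took the 10 genes, up to 4 genes of each pathway list with the smallest p, and of each marker list up to 3 with the smallest p and up to 2 with the highest level; of the marker lists, single genes are given for macrophages and granulocytes. The genes whose values are given outside this rule are said in the text to have been looked at after their values were known. Lists are described by counts and medians, with no list test. Alternatives were leaving out each array, replicate number as a block, normexp background correction, quantile normalization, the authors' log2 values, other filters on dim probes, the mean of a gene's probes and limma-trend.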

Additional observations from a re-analysis of the deposited data

How the results depend on the processing

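The 10 genes gave 120 comparisons with the values reported, over 12 alternatives: 111 kept the direction and the side of the threshold and 9 changed direction. In all 12, 0 of the 10 genes passed the adjusted limma test, and without a filter on dim probes 0 of the 16 probes did. Trem2, Tyrobp, Cd300a, Cd300lb, Cd300lf and Pilra kept their sign throughout. With 1 array left out in turn, the difference ran from -1.04 to 0.062 for Trem1, -0.14 to 0.13 for Trem3, -0.19 to 0.18 for Cd300ld, -0.12 to 0.48 for Pirb, -0.63 to 0.25 for Cd14, -0.016 to 0.32 for Pira2 and -0.16 to 0.14 for Treml4. Normexp gave 0.00059 for Trem3 and 0.093 for Treml4, the authors' log2 values gave 0.012 for Trem3, 0.017 for Cd300ld and 0.015 for Treml4, and quantile normalization gave 0 for S100a9. The cause of these changes was not tested, and Adgre1 and Mpo were not among the genes compared. Other named genes gave 408 comparisons, of which 399 were unchanged in direction and call, 7 changed direction, 1 was at 0 and 1, Fn1 without array 1 of wild type, passed the test with an adjusted limma p of 0.0422.

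Leaving out 1 array gave 0 to 374 genes past the adjusted limma test, with 374 without array 1 of wild type, where a lone wild-type array is assumed to vary like the miR-223 KO pair. It gave 5 to 8 of the 10 genes apart and higher, beside 39.0% to 43.4% of all genes, and 1 to 5 apart and lower, beside 27.1% to 37.3%. On all 4 arrays, normexp gave 4 apart and higher, beside 20.4% of all genes, and 1 lower, beside 17.9%. The mean of a gene's probes gave 4 apart and higher, beside 26.3% of all genes, and 1 lower, beside 19.9%. With replicate number as a block, 0 genes passed and Trem2 had an adjusted limma p of 0.275. Same-numbered arrays correlated at 0.174 in their deviations, with 2 numbers only, so the numbers were not taken to pair the arrays. Genes with an unadjusted p under 0.05 numbered 2276, and 1187 to 3100 with 1 array left out. The median over all tested genes was -0.07 without the filter on dim probes and 0.03 as reported, since dim genes then enter.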
